A study of Arabidopsis thaliana with 12 samples.

Results

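Mitochondrial retrograde signalling was followed through 8 genes of Arabidopsis thaliana, of which 3 encode regulators and 5 are targets. The regulators were the NAC transcription factors ANAC013 (AT1G32870), ANAC016 (AT1G34180) and ANAC017 (AT1G34190). The targets were UPOX (AT2G21640), OM66 (AT3G50930), UGT74E2 (AT1G05680), AT2G41730 and AT5G09570. The genes were chosen by their identifiers for what is known of the pathway, by a rule that uses no measured value. Earlier results of these data were known at that time, so counts of called genes among the 8 are descriptions. All 8 genes were present among the 21623 genes that both tables of values share, and all 8 passed the filter that left 20623 tested genes.

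Whole seedlings were sampled 7 days after germination, from the wild type Col-0 and from the ap1/cal double mutant. The mutant lacks the MADS-domain factors AP1 and CAL, which give floral meristems their identity, and it over-proliferates inflorescence and young floral meristems later in development. Seedlings of both genotypes spent 24 h with 1 mM of the nitric oxide donor sodium nitroprusside (SNP) or were left without it (Mock). This gave 4 groups of 3 libraries, Col-0 Mock, Col-0 SNP, ap1/cal Mock and ap1/cal SNP, 12 in all, and the study describes 3 biological replicates for each condition. The questions were how each gene responded to SNP in each genotype and whether a genotype difference went beyond the overall scale of the response.

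When mitochondria are impaired, plants change the transcription of nuclear genes, a flow of information called retrograde signalling. ANAC013, ANAC016 and ANAC017 are made as dormant proteins that are held at the endoplasmic reticulum by a membrane anchor, and after cleavage the released part moves to the nucleus. There ANAC013 and ANAC017 bind the mitochondrial dysfunction motif in the promoters of stress genes, among them the gene of the alternative oxidase AOX1A and that of ANAC013 itself. ANAC017 is therefore known to act largely without a change in its own transcript, whereas ANAC013 is both a regulator and a target.

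The promoter windows that hold this motif are printed first, because it is what the regulators are known to bind. The motif was searched in 2 forms, CTTG followed by 5 bases of any kind and then by CAAG or by CACG, on both strands, from 250 bases before to 50 bases after the annotated gene start in the RefSeq annotation of TAIR10.1. A match was found in 5 of the 8 genes, namely 4 of the 5 targets and 1 of the 3 regulators, and in 240 of 20487 tested nuclear genes (1.17%). The 13 bases of the motif are in capitals with 8 flanking bases on each side, read 5′ to 3′ on the strand of the gene.
UPOX: tttagtaaCTTGCTCTCCAAGgagatcta
AT2G41730: attaatatCTTGCTGGACAAGcatttttg
UGT74E2: ccgcacatCTTGGTCGCCACGgaacatag
AT5G09570: gcaagaaaCGTGACGGGCAAGgggaatat
ANAC017: acctctgtCGTGTCAGACAAGaatgttgg
AOX1A: tcttccatCTTGCTCTCCAAGaaaaatct
AOX1A: atctagctCTTGGCGACCACGcaagtatc

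UPOX (window chr2:9254319-9254347, plus strand) and AT2G41730 (chr2:17409353-17409381, plus strand) held the form that ends in CAAG, which began 51 and 9 bases before the annotated start. UGT74E2 (chr1:1704805-1704833, minus strand) and AT5G09570 (chr5:2970503-2970531, plus strand) held the other form, in both cases from base 14 after the start, and in AT5G09570 it lay on the opposite strand. The ANAC017 match, of the form with CACG (chr1:12451287-12451315, plus strand) began 110 bases before the start, on the opposite strand, in the 117 bases that separate ANAC017 from its upstream tandem neighbour ANAC016. AOX1A, shown as the best known target of the pathway, held both forms (chr3:7906537-7906565 and chr3:7906510-7906538, plus strand). No match was found in these windows of ANAC013, ANAC016 and OM66, which says only that these letters are not in the windows searched.

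The count of matches is a description, because the motif was first defined on genes of this kind and the window was changed after a first search. That first search covered 500 bases before the annotated start and none after it, and found a match in 2 of the 8 genes against 377 of the 20487 (1.84%). With the 8 genes and AOX1A left out, 234 tested genes had the motif in the second window. Close relatives and other genes known to rise when mitochondria are impaired were not removed from the 234. The highest Col-0 response among the 234, at 8.10, was that of AT1G05675, a neighbour of UGT74E2. Of the 234, 39.7% were called higher with SNP in Col-0 and 25.6% lower, with a median log2 fold change of 0.16. Of the 20247 genes without the motif, 26.6% were called higher and 29.2% lower, with a median of -0.02.

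Transcript levels are given as normalized values, which are estimated reads per gene divided by 1 size factor per library. The 2 genotypes were normalized in separate tables, so SNP was compared with Mock within a genotype, and genotypes were compared through the difference of these responses. A response is a log2 fold change on the log2(value + 1) scale, from limma over all 20623 genes, and a gene was called when its Benjamini-Hochberg adjusted p was below 0.05 and its fold at least 1.5. A library held between 22.5 and 59.7 estimated reads, in units of 1e6. SNP changed most of the transcriptome, and 55.9% of all tested genes were called in Col-0 and 62.9% in ap1/cal. Of the shoot markers, RBCS1A, CA1 and LHCB1.3 were abundant in every library, and their summed value was 812582 to 954955 under Mock and 1079320 to 1146390 under SNP for Col-0, and 888210 to 1182440 and 1096010 to 1305850 for ap1/cal. The 3 did not move together. In Col-0, RBCS1A (0.67) and CA1 (0.79) were called higher and LHCB1.3 (-0.39) was not called. In ap1/cal only CA1 (0.64) was called higher. With library-size scaling, 0 of the 3 were called higher and 1 was called lower in each genotype.

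Of the root markers, 3 of 4 were called lower with SNP in both genotypes, and the exception was WER. Their summed value lay between 1022 and 1058 under Mock and between 228 and 278 under SNP for the Col-0 libraries, and between 1104 and 1215 and between 117 and 167 for the ap1/cal libraries. None of the 4 was at 0 in a whole group, and their part in the responses below was not tested. In bulk seedlings, fewer cells of a type and less RNA per cell cannot be told apart.

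SNP raised ANAC013 and all 5 targets in both genotypes, with ratios of the group means between 25.2 and 106 for Col-0 and between 36.4 and 416 for ap1/cal. In Col-0, 6 of the 8 were called higher and none lower, against 26.9% of all tested genes called higher and 29.1% lower. ANAC017 was lower in both genotypes with an adjusted p under 0.05 by limma with Benjamini-Hochberg, but its fold stayed below 1.5. When no fold was required, 38.1% of all tested genes were called lower in Col-0 and 41.2% in ap1/cal. In ap1/cal, 7 of the 8 were called higher and none lower, against 29.8% of all tested genes called higher and 33.0% lower. The 8 genes had a median response of 5.08 in Col-0 and of 5.87 in ap1/cal, beside -0.02 and -0.04 for all tested genes. ANAC013 and the 5 targets were all among the 347 genes (1.68% of those tested) whose log2 fold change was at least 4 in both genotypes.

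**Figure D1:**
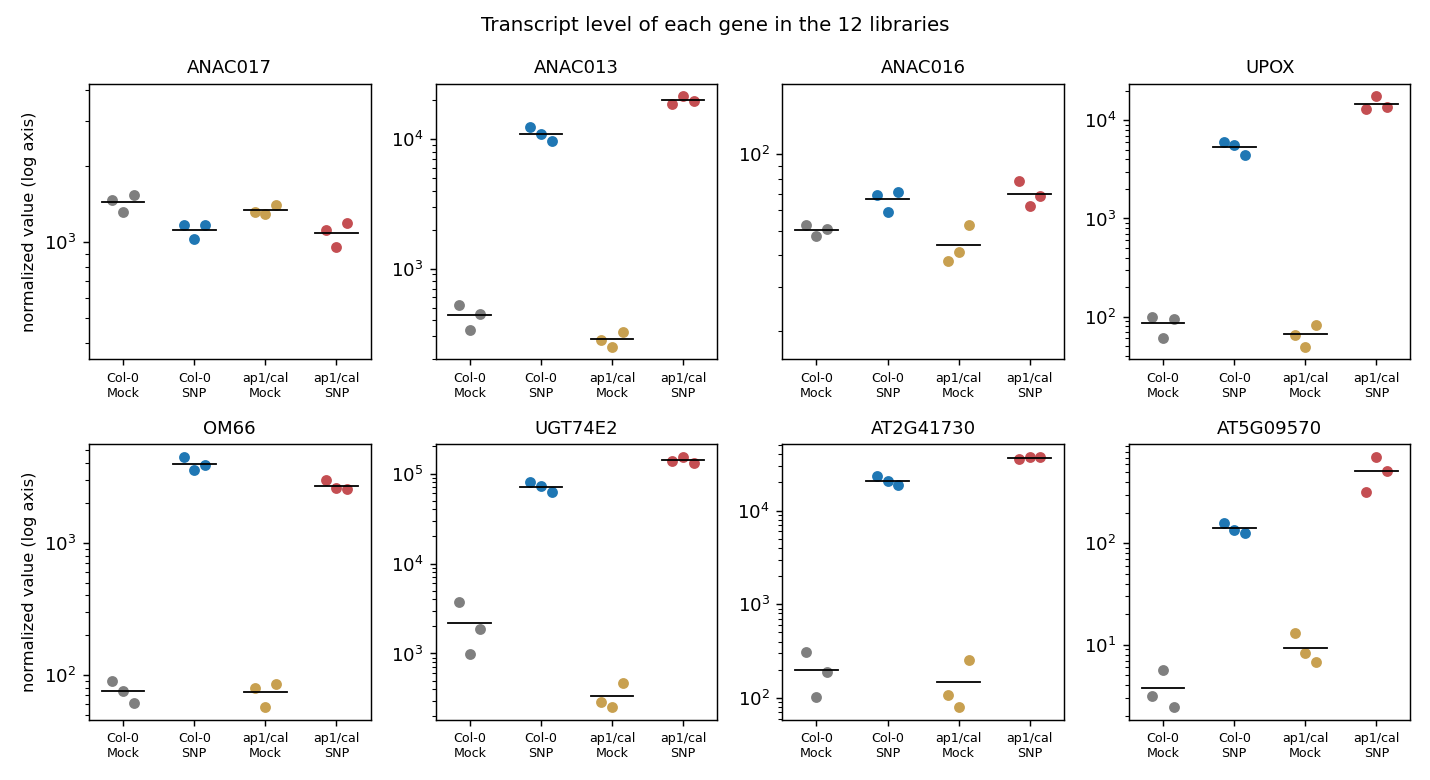
Normalized value (log axis) of each of the 8 genes in the 12 libraries, where a point is a library and a line is the mean of the 3 libraries of a group. ANAC013, ANAC016 and the 5 targets had every SNP library above every Mock library of the same genotype, as did 39.1% (Col-0) and 40.2% (ap1/cal) of all tested genes. ANAC017 had every SNP library below every Mock library, as did 39.5% and 42.1%.

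ANAC017 (chr1:12451405-12454542, plus strand), the factor released from the endoplasmic reticulum when mitochondria are disturbed, had a moderate transcript level in all 4 groups, lower with SNP than with Mock. Col-0 libraries had values of 1463, 1313 and 1530 under Mock and of 1163, 1024 and 1169 under SNP, a mean of 1435 ± 111 against 1119 ± 81.8 (SD, n = 3). The ap1/cal libraries had 1311, 1290 and 1405 under Mock and 1113, 953 and 1184 under SNP, a mean of 1335 ± 61.4 against 1083 ± 119 (SD, n = 3). Every SNP library lay below every Mock library of its genotype, as was so for 39.5% of all tested genes in the Col-0 libraries and for 42.1% in those of ap1/cal. Its response was -0.36 (SE 0.09) in Col-0 (adjusted p 0.00285 by limma with Benjamini-Hochberg) and -0.31 in ap1/cal (adjusted p 0.00728), so the adjusted p passed but the fold stayed below 1.5 and ANAC017 was not called. With the tables scaled to equal library totals, which moves the median of all genes to -0.51 in Col-0 and -0.74 in ap1/cal, ANAC017 was called lower, at -0.86 and -1.02. It was also called lower with upper-quartile scaling, at -0.62 and -0.68 (median of all genes -0.27 and -0.40), and when the fold of 1.5 was not required.

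ANAC013, the factor that shares the motif with ANAC017 and activates its own gene, was the regulator with the large response. Col-0 libraries went from 522, 337 and 448 under Mock to 12328, 10863 and 9722 under SNP, and ap1/cal libraries from 279, 250 and 325 to 18637, 21483 and 19837. No SNP library came near a Mock library, and the ap1/cal group started at the lower mean and ended at the higher one, across tables that were normalized separately. The group means were 436 ± 93.1 and 10971 ± 1306 in Col-0 and 285 ± 37.9 and 19986 ± 1429 in ap1/cal (SD, n = 3), a rise of 25.2-fold and 70.2-fold. These levels gave a response of 4.67 (SE 0.14) in Col-0 (adjusted p 7.9e-12 by limma with Benjamini-Hochberg) and 6.14 in ap1/cal (adjusted p 4.2e-13). The last 20 bases of the ANAC013 locus (chr1:11911631-11913947, plus strand) overlap AT1G32880 on the opposite strand, and since the use of strand in counting is not given in the sources used here, its value is uncertain to that extent.

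ANAC016 (chr1:12448543-12451287, plus strand), a NAC factor best known in Arabidopsis from leaf senescence and drought, was the least abundant regulator. Col-0 libraries had 52.8, 47.7 and 50.7 under Mock and 69.3, 59.2 and 70.9 under SNP, and ap1/cal libraries had 37.8, 41.2 and 52.6 under Mock and 78.2, 62.3 and 68.6 under SNP. Every SNP library lay above every Mock library of its genotype, as was so for 39.1% of all tested genes in the Col-0 libraries and for 40.2% in those of ap1/cal, but the steps were small. The log2 fold change was 0.39 (SE 0.17) in Col-0 (adjusted p 0.0513 by limma with Benjamini-Hochberg), which did not pass, and 0.66 in ap1/cal (adjusted p 0.0027), which was called. That call was narrow, and was lost at 0.56 without ap1/cal Mock replicate 1, at 0.58 without ap1/cal SNP replicate 1, at 0.57 with a pseudocount of 10, at 0.30 with upper-quartile scaling and when limma tested against a fold of 1.5. With library-size scaling the sign turned in both genotypes, to -0.10 in Col-0 and -0.035 in ap1/cal, and neither value was called.

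Per kilobase of exon, the order of the regulators was ANAC017, ANAC013, ANAC016 in both Mock groups and ANAC013, ANAC017, ANAC016 in both SNP groups. For ANAC017, ANAC013 and ANAC016 the Col-0 means per kilobase were 547, 223 and 21.9 under Mock and 426, 5609 and 28.9 under SNP. In ap1/cal SNP, ANAC013 reached 10218 per kilobase against 413 for ANAC017. ANAC016 and ANAC017, which lie in tandem on chromosome 1, thus kept a large difference in level in all 4 groups, and the change of order was made by ANAC013 alone.

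UPOX (chr2:9254378-9255743, plus strand) encodes a small mitochondrial protein and is used as a marker of the response to oxidative stress. In Col-0 libraries it stood at 99.8, 60.1 and 95.3 under Mock and at 6070, 5635 and 4419 under SNP, and in ap1/cal libraries at 64.5, 49.5 and 83.0 under Mock and at 13171, 17681 and 13782 under SNP. SNP and Mock libraries were far apart in both genotypes. UPOX thus had a response of 5.99 (SE 0.21) in Col-0 (adjusted p 2.5e-11 by limma with Benjamini-Hochberg) and 7.82 in ap1/cal (adjusted p 1.4e-12). The rise of the group means was 63.2-fold in Col-0 and 227-fold in ap1/cal.

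OM66 (chr3:18929526-18932181, plus strand), an AAA-type ATPase of the outer mitochondrial membrane linked to cell death and salicylic acid, was the target with the smaller response in ap1/cal. Col-0 libraries held 90.5, 76.1 and 61.4 under Mock and 4463, 3569 and 3891 under SNP, against 79.9, 56.9 and 85.8 under Mock and 2976, 2585 and 2530 under SNP for ap1/cal libraries. Across tables that were normalized separately, ap1/cal minus Col-0 was -0.04 log2 units in Mock and -0.56 in SNP. Of all tested genes, 16.0% had a lower value than OM66 in SNP, and these values have no test. The group means rose 52.3-fold in Col-0 and 36.4-fold in ap1/cal, which is a response of 5.70 (SE 0.16, adjusted p 3.6e-12 by limma with Benjamini-Hochberg) and 5.18 (adjusted p 4.7e-12).

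UGT74E2 (chr1:1703002-1704838, minus strand) encodes a UDP-glucosyltransferase that acts on the auxin indole-3-butyric acid and is induced by hydrogen peroxide. The Col-0 libraries had 3722, 999 and 1893 under Mock and 80002, 71882 and 61650 under SNP. The ap1/cal libraries began lower, with 292, 253 and 469 under Mock, and reached 136416, 152977 and 131887 under SNP. The ap1/cal group thus had the lower mean in Mock and the higher one in SNP, across tables that were normalized separately. The group means rose 32.3-fold in Col-0 and 416-fold in ap1/cal, which is a response of 5.21 (SE 0.35, adjusted p 1.3e-08 by limma with Benjamini-Hochberg) and 8.74 (adjusted p 5.0e-11). With SNP, UGT74E2 was among the most abundant transcripts, at ranks 48 to 61 of the tested genes in the Col-0 libraries and 21 to 26 in the ap1/cal libraries. It held 0.187 ± 0.0192% and 0.314 ± 0.0268% of the summed values of all genes (SD, n = 3), against 0.00809% and 0.00122% in Mock.

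AT2G41730 (chr2:17409370-17410334, plus strand), a gene of unknown function that is known as a marker of mitochondrial dysfunction and of low oxygen, had the largest response of the 8 in Col-0. It had 306, 101 and 187 under Mock and 23368, 20572 and 18829 under SNP in Col-0 libraries, and 106, 79.4 and 257 under Mock and 35951, 37050 and 37435 under SNP in ap1/cal libraries. The Mock libraries of 1 group were up to 3.23-fold apart. The SNP libraries were 1.24-fold apart in Col-0 and 1.04-fold in ap1/cal, where the medians over all genes were 1.16 and 1.22 (on value + 1). The log2 fold change was 6.85 (SE 0.39) in Col-0 (adjusted p 2.2e-09 by limma with Benjamini-Hochberg) and 8.14 in ap1/cal (adjusted p 2.5e-10), and ranked 45 and 47 from the highest among the tested genes.

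AT5G09570 (chr5:2970498-2972222, plus strand), annotated as a protein of the Cox19-like CHCH family, was the least abundant target and rests on few reads in Mock. Under Mock, Col-0 libraries had 3.12, 5.64 and 2.42, which stand for 4, 6 and 3 estimated reads, and ap1/cal libraries had 13.2, 8.25 and 6.75, from 18, 19 and 7 estimated reads. With SNP they were 160, 135 and 127 in Col-0 and 322, 711 and 513 in ap1/cal. All SNP libraries lay well above all Mock libraries. The ap1/cal mean was the higher in both states, across tables that were normalized separately. Its response was 4.96 (SE 0.32) in Col-0 (adjusted p 9.7e-09 by limma with Benjamini-Hochberg) and 5.61 in ap1/cal (adjusted p 2.0e-09). Its size moved with the settings, between 3.46 and 5.29 for Col-0 and between 4.70 and 5.91 for ap1/cal, while the call did not.

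The genotype difference of the response was called for ANAC013, UPOX and UGT74E2, 3 of the 8 genes, all of them with the larger response in ap1/cal. Over all tested genes 14.6% were called, 7.6% with the more positive and 6.97% with the more negative response in ap1/cal. The difference was 1.47 (SE 0.20) for ANAC013 (adjusted p 3.7e-04 by limma with Benjamini-Hochberg), 1.83 (SE 0.30) for UPOX (adjusted p 9.9e-04) and 3.54 (SE 0.50) for UGT74E2 (adjusted p 3.8e-04). UGT74E2 ranked 22 from the most positive of the tested genes. With each library left out in turn these values ranged from 1.33 to 1.64, 1.65 to 2.06 and 3.06 to 4.01, and the 3 calls held in every case.

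The other 5 genes did not pass, and their intervals show what these libraries could resolve. AT2G41730 had a difference of 1.29 with a 95% interval from 0.11 to 2.47 (adjusted p 0.105 by limma with Benjamini-Hochberg). It was called at 1.70 (adjusted p 0.0219) without Col-0 Mock replicate 2 and at 1.78 (adjusted p 0.0119) without ap1/cal Mock replicate 3, the lowest and the highest Mock library of their groups. OM66 had a difference of -0.52, from -1.01 to -0.02 (adjusted p 0.120), which was called at -0.70 without ap1/cal Mock replicate 2 and at -0.73 with library-size scaling. AT5G09570 lay at 0.65, from -0.34 to 1.64 (adjusted p 0.331), and was called at 1.24 with a pseudocount of 10. The narrowest interval was that of ANAC017, from -0.23 to 0.33 around 0.05 (adjusted p 0.805), and that of ANAC016 ran from -0.25 to 0.79 around 0.27 (adjusted p 0.440).

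**Figure D2:**
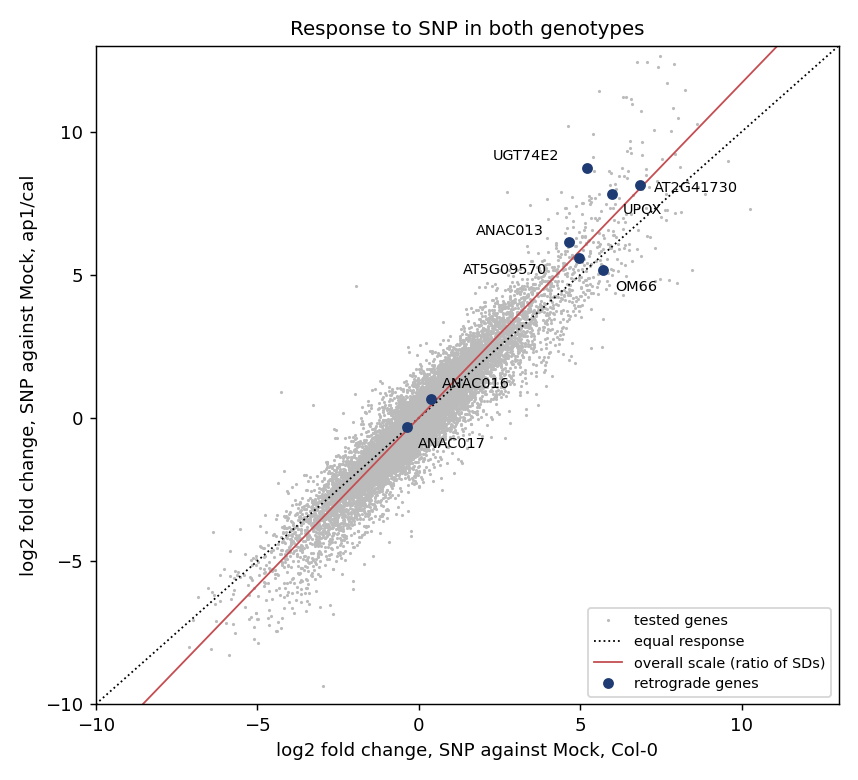
Log2 fold change with SNP in ap1/cal against that in Col-0 for the 20623 tested genes (grey points) and the 8 retrograde genes (blue points), with a dotted line of equal response and a red line of the overall scale, whose slope is 1.17. UGT74E2 stood above the red line at 5.21 and 8.74, and OM66 below both lines at 5.70 and 5.18.

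The whole transcriptome responded on a wider scale in ap1/cal, and each gene was therefore compared with that scale. Over all tested genes the log2 fold changes had an SD that was 1.81 for ap1/cal and 1.55 for Col-0, which makes a ratio of 1.17. The scaled difference is the ap1/cal response minus 1.17 times the Col-0 response, with the ratio treated as fixed. It was called for 12.4% of all tested genes, 5.96% more positive and 6.41% more negative, and for 2 of the 8 retrograde genes in opposite directions. The median over the 8 genes fell from 0.97 before scaling to 0.17 after it, where the medians of all genes were -0.02 and -0.01.

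UGT74E2 rose in ap1/cal by more than the overall scale, with a scaled difference of 2.65 (95% interval 1.49 to 3.82, adjusted p 0.00534 by limma with Benjamini-Hochberg). OM66 rose by less, with -1.49 (95% interval -2.03 to -0.95; adjusted p 0.00183). With each library left out in turn the values ranged from 2.21 to 3.13 and from -1.63 to -1.31, and both calls held. Among the 4850 genes called higher in both genotypes, the scaled difference was called more positive for 9.32% and more negative for 12.5%. When limma tested against a fold of 1.5 rather than against 0, none of the 8 genes was called, beside 0.94% of all tested genes. In that test an unadjusted p under 0.05 was found for 2 of the 8 and for 1331 of the 20623 tested genes. The adjusted p was then 0.0799 for UGT74E2 and 0.101 for OM66.

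ANAC013 and UPOX, both called before scaling, were not called after it. ANAC013 had a scaled difference of 0.67 (95% interval 0.19 to 1.15, adjusted p 0.0535 by limma with Benjamini-Hochberg), and with the replicate number as a block the same value had an adjusted p of 0.0303 and was called. UPOX had 0.81 (95% interval 0.11 to 1.52; adjusted p 0.103). Both were called without Col-0 Mock replicate 2 (0.81 and 1.00), with a pseudocount of 10 (0.76 and 0.93) and with the least-squares slope of 1.10 as the scale (1.01 and 1.25). The call of ANAC013 was also made without ap1/cal Mock replicate 3 (0.72) and with a ratio of 1.15 taken from the genes called higher in both genotypes (0.78). AT2G41730 lay at 0.12 (95% interval -1.16 to 1.41; adjusted p 0.911) and AT5G09570 at -0.20 (95% interval -1.27 to 0.88; adjusted p 0.822), intervals too wide to show that their responses followed the scale. The scaled differences of ANAC017 (0.11; adjusted p 0.623) and ANAC016 (0.21; adjusted p 0.631) did not pass either.

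**Figure D3:**
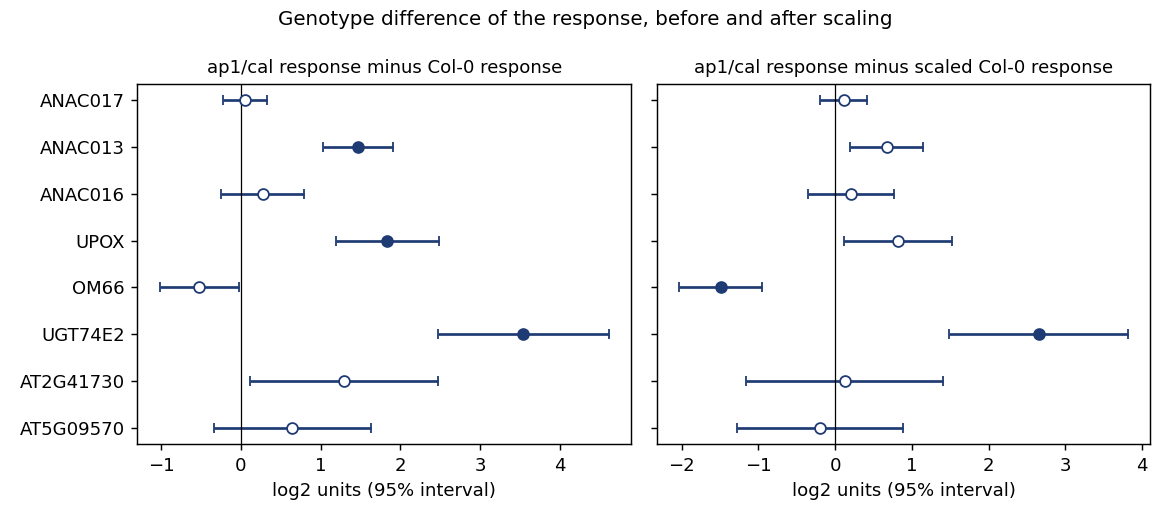
Difference of the SNP response between the genotypes in log2 units before (left) and after (right) scaling by 1.17, with 95% intervals. Filled points were called and open points were not, and after scaling UGT74E2 (2.65) and OM66 (-1.49) were filled.

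The levels show where the genotype differences lay, within the limit that the 2 tables were normalized separately, so that these values have no test. The median of all genes, ap1/cal minus Col-0, was -0.04 in Mock and -0.07 in SNP, with an SD of 0.331 and 0.588. UGT74E2 lay 2.55 log2 units lower in ap1/cal Mock, a value below which only 0.136% of the tested genes fell, and 0.99 higher in ap1/cal SNP. In these untested values the Mock part was the larger one, and it rests on Col-0 Mock libraries that ran from 999 to 3722. UPOX was 0.37 lower in Mock and 1.47 higher in SNP, and ANAC013 was 0.60 lower and 0.87 higher, so that both parts added to their differences. OM66 was at -0.04 in Mock and -0.56 in SNP, and its difference lay in the SNP libraries. AT5G09570 was the 1 target that was higher in ap1/cal in both states, by 1.15 and 1.80.

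The Mock libraries of ANAC013 and of all 5 targets varied more than those of most genes. The ratio of the highest to the lowest library, taken on value + 1, had a median over all genes of 1.21 in Col-0 Mock and 1.16 in ap1/cal Mock. UGT74E2 had 3.72 in Col-0 and 1.85 in ap1/cal, and AT2G41730 had 2.99 and 3.20. The ratios of ANAC013, UPOX, OM66 and AT5G09570 lay between 1.47 and 1.94 in Col-0 Mock and reached at most 1.83 in ap1/cal Mock.

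In 3 of the 4 groups the same library was highest for at least 5 of these 6 genes. Replicate 1 was highest for 5 of the 6 in Col-0 Mock and for 6 of 6 in Col-0 SNP, where it was highest for 40.4% and 39.2% of all tested genes. Replicate 3 was highest for 5 of 6 in ap1/cal Mock (41.4% of all tested genes). The order was less shared in ap1/cal SNP, where replicate 2 was highest for 4 of 6 (33.7%) and replicates 1 and 3 for 1 each. The ap1/cal replicate 3 libraries also stood apart in the seed storage marker CRA1, at 206 against 23.4 and 36.5 in Mock and at 359 against 98.4 and 61.3 in SNP, and its part in these results was not tested.

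AOX1A, the alternative oxidase that accepts electrons from ubiquinol and is the classic target of the pathway, rose strongly in both genotypes. Col-0 libraries had 2871, 1750 and 2610 under Mock and 71169, 59286 and 58544 under SNP, and ap1/cal libraries 1827, 1729 and 2775 under Mock and 95793, 102708 and 104257 under SNP. It had a response of 4.73 in Col-0 (adjusted p 7.1e-11 by limma with Benjamini-Hochberg) and 5.61 in ap1/cal (adjusted p 9.1e-12), with a called difference of 0.88 (adjusted p 0.0304) and a scaled difference of 0.07 (adjusted p 0.894).

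The genes with the profile most like each of the 8 over the 12 libraries were named by the smallest root mean square distance in log2 units. ANAC017 was followed most closely by AT1G18720 (0.0562) and TRB3 (0.0638), and ANAC016 by AT5G12190 (0.0933) and BTR1L (0.0946). ANAC013 was followed by AT5G35320 (0.130) and AT4G15420 (0.139), annotated as a ubiquitin fusion degradation UFD1 family protein. UPOX was followed by AT5G10695 (0.249) and Fes1A (0.256), a cytosolic partner of heat shock protein chaperones. OM66 had AT2G20562 (0.171), whose Col-0 and ap1/cal responses were 5.72 and 5.31, and AT1G28190 (0.190), with 5.57 and 5.04. UGT74E2 had AT1G21550 (0.224), with responses of 5.21 and 8.70, and ACA2, an alpha carbonic anhydrase (0.438). AT2G41730 had SIB1, a nuclear-encoded binding protein of plastid sigma factors (0.287), and RHL41, the zinc finger factor also called ZAT12 (0.334). AT5G09570 had AT1G07500 (0.330) and 5PTASE11 (0.361).

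Close relatives of the targets gave a comparison within gene families, and 4 of the 5 that were tested were called higher in both genotypes. AT1G05675, a UDP-glycosyltransferase gene that lies 252 bases from UGT74E2 on the same strand, had Mock values of 229, 27.2 and 87.2 in Col-0 and a mean of 115 there and 56.1 in ap1/cal. With SNP it reached nearly the same mean in both genotypes, 22791 for Col-0 and 22893 for ap1/cal. Its response was 8.10 in Col-0 (adjusted p 1.2e-08 by limma with Benjamini-Hochberg) and 8.76 in ap1/cal (adjusted p 3.7e-09), with a difference of 0.66 (95% interval -0.98 to 2.31; adjusted p 0.562), so that the genotype difference of UGT74E2 was not called for its neighbour. No window of 75 bases was shared between any of the 8 genes and another gene.

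AT5G64400, the CHCH domain relative of AT5G09570, was far more abundant and rose by 1.14 (Col-0) and 1.87 (ap1/cal) on the log2 scale, with a called difference of 0.73 (adjusted p 0.00214 by limma with Benjamini-Hochberg). It overlaps AT5G64395 and AT5G64401 on the opposite strand and AT5G64390 on the same strand, and its value is uncertain. Of the ATPase relatives of OM66, AT2G18193 rose by 4.09 and 4.71. AT5G17760 had a log2 fold change of 0.14 and 0.44 and was not called. AT2G18190 had values of 1.56, 2.82 and 2.42 in Col-0 Mock, at most 3 estimated reads, and 15.7, 24.1 and 11.7 in Col-0 SNP. Its ap1/cal values were 29.3, 3.04 and 2.89 with Mock and 49.2, 23.2 and 36.5 with SNP, so that the groups overlapped there although the gene was called. AT3G50940 did not pass the filter.

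Other genes known to rise when mitochondria are impaired also rose. All 14 of that list, AOX1A included, were called higher in both genotypes, and the median response was 4.86 for Col-0 and 5.59 for ap1/cal. CYP81D8, a cytochrome P450, rose by 7.53 and 9.05, and AT5G51440, an HSP20-like chaperone, by 6.07 and 8.18. The smallest responses were those of CRF6, a cytokinin response factor, at 2.93 and 4.02, and of AT1G05060, at 1.75 and 2.55. The difference was called for 9 of the 14, all more positive, and the scaled difference for 2, AT5G51440 at 1.08 (adjusted p 0.0305 by limma with Benjamini-Hochberg) and AT2G32020, annotated as an acetyltransferase, at -1.25 (adjusted p 0.0393).

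**Figure D4:**
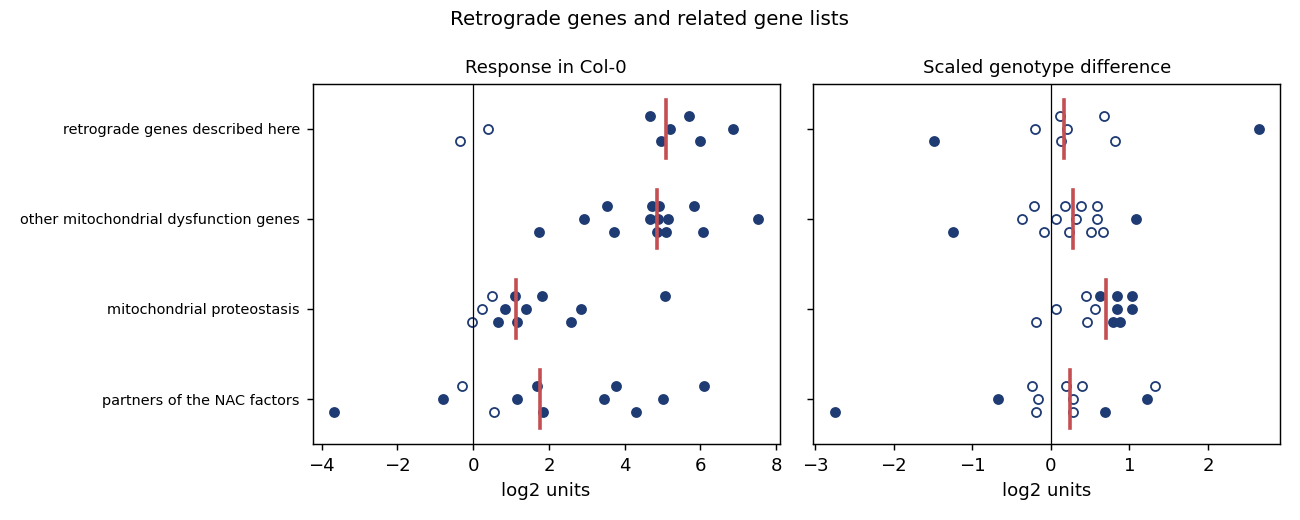
Response in Col-0 (left) and scaled genotype difference (right), in log2 units, of the 8 retrograde genes and of 3 related lists, where a point is a gene, filled if called, and the red bar is the median of the list. The mitochondrial proteostasis genes had a median of 1.13 in Col-0 and of 0.70 for the scaled difference.

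The genes of mitochondrial proteostasis, which fold, import and degrade proteins in the organelle, rose by less at the median. Of 12 genes, 9 were called higher in Col-0 (median 1.13) and 11 in ap1/cal (median 2.02). The disaggregase CLPB4 rose by 5.05 and 6.37 and the import channel subunit TIM17-1 by 2.86 and 3.80. HSP60-2, a chaperonin, lay at -0.02 and -0.21 and did not pass. LON1, a protease of the matrix, was at 0.22 in Col-0 (adjusted p 0.0817 by limma with Benjamini-Hochberg) and rose by 1.29 in ap1/cal. The difference was called for 9 of the 12 and the scaled difference for 7 of the 12, all more positive, the latter with a median of 0.70, and was 1.03 for LON1 (adjusted p 0.00163) and 0.46 for CLPB4 (adjusted p 0.0995). With library-size scaling the counts were 7 higher in Col-0, 9 higher and 1 lower in ap1/cal, and 6 for the scaled difference.

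The partners of the NAC factors, proteins that bind them, cleave them or act at the same promoters, moved in both directions. Of the 12 tested, Col-0 had 8 called higher and 2 called lower (median 1.76), and ap1/cal had 9 higher and 2 lower (median 2.61). The difference was called more positive for 3 and more negative for 1, and the scaled difference for 2 in each direction. The transcription factors WRKY40 and WRKY63, known as a repressor and an activator of AOX1A, both rose. The response of WRKY40 was 6.09 for Col-0 and 4.38 for ap1/cal, and that of WRKY63 was 5.0 and 5.69. The scaled difference of WRKY40 was -2.75 (adjusted p 5.8e-04 by limma with Benjamini-Hochberg) and that of WRKY63 -0.16 (adjusted p 0.851). MYB29, a regulator of glucosinolate synthesis and of AOX1A, fell by 3.68 in Col-0 and fell by 2.98 in ap1/cal, and the kinase subunit KIN10 fell by 0.80 and fell by 0.74. RCD1, a nuclear protein that binds ANAC013 and ANAC017 and restrains them, is a gene chosen for mention once its values were known. It had means of 6621 under Mock and 14700 under SNP for Col-0 and of 5957 and 35184 for ap1/cal, a difference of responses of 1.41 (adjusted p 1.3e-04) and a scaled difference of 1.22 (adjusted p 8.0e-04).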

How the data were processed

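Poly(A) RNA of 12 seedling libraries was sequenced from a strand-specific kit, and the authors aligned reads of 75 bases to TAIR10 with STAR. The counting tool and its use of strand are not given in the sources used here, the methods section describes shoot apices rather than seedlings, and DEGseq and DESeq2 are both named for differential expression. The deposited values are a signal per gene in 1 table per genotype (21812 and 21865 genes). They are described as raw counts, but all values up to 50 of genes with 1 transcript were whole multiples of a step per library (tolerance 0.001), against 66.4 to 70.0% of all such low values, so they were read as estimated counts divided by 1 size factor per library (0.521 to 2.30). No count test was run, because the low values of many genes were not whole. Reads per library follow from the step, and intervals cover the spread between libraries only.

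Genes that reached 10 in 3 or more libraries were tested with limma 3.58.1 (R 4.3.3, trend on mean level) on log2(value + 1), with 4 group means over the 12 libraries and Benjamini-Hochberg adjustment over all 20623 genes. The fold of 1.5 follows the study's methods. Python 3.11.15, numpy 2.4.6, pandas 2.3.3 and matplotlib 3.10.9 served for the rest, and the scripts were tested on simulated data. Of the identifiers in both tables, 21475 (99.3%) matched the RefSeq annotation of TAIR10.1, which gave coordinates, exon lengths and sequences.

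The genes and lists were chosen with earlier results of these data known. All 8 genes are named, with the 2 genes most alike to each, AOX1A, the close relatives, and from each list the 2 largest rises and the 2 largest falls or smallest changes in Col-0. ABI4 and the flower marker AG were not analysed here, and flower markers summed to at most 43.1 per library. Seed storage markers summed to 4.23 to 16.6 in the Col-0 libraries and to 30.0 to 411 in the ap1/cal libraries, highest in replicate 3. Alternatives changed the pseudocount, filter, scaling, threshold, variance model, scale ratio, library set and replicate block. Libraries of the same replicate number deviated together in ap1/cal (r 0.122, 0.121 and 0.167 between Mock and SNP) but not in Col-0 (0.06, 0.06 and -0.05), and the labels do not say what a number shares.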

Additional observations from a re-analysis of the deposited data

Results flagged for a closer look

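A difference between the genotypes under the same SNP against Mock contrast was called for 3 of the 8 genes before scaling and for 2 of the 8 after it. Limma tested the difference itself, and called 14.6% of all tested genes before scaling and 12.4% after it. Before scaling, ANAC013 differed by 1.47, UPOX by 1.83 and UGT74E2 by 3.54 log2 units, all larger in ap1/cal. After scaling by the overall response, UGT74E2 differed by 2.65 and OM66 by -1.49. Neither was called when limma tested against a fold of 1.5, which called 0.94% of all tested genes. The 2 Mock groups of UGT74E2 also stood apart, at 338 ± 115 in ap1/cal and 2205 ± 1388 in Col-0 (SD, n = 3), across tables that were normalized separately.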

How the results depend on the processing

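Of the 8 genes, 2 had a called scaled difference, beside 12.4% of all tested genes. The count was 4 with a pseudocount of 10 (12.8% of all tested genes) and with the scale from the least-squares slope (12.5%). It was 0 when tested against a fold of 1.5 (0.94%). With each library left out in turn it was 2 to 4 (8.95 to 14.4%), with 4 reached without Col-0 Mock replicate 2 (14.4%). Left out in turn, the libraries gave 6 genes called in Col-0 (54.7 to 56.2% of all tested genes), 6 to 7 in ap1/cal (61.8 to 62.9%) and 3 to 4 for the unscaled difference (11.5 to 16.5%). Over all alternatives the counts were 6 to 7 (40.6 to 76.0%), 6 to 8 (48.9 to 80.8%) and 3 to 4 (1.64 to 23.4%). Of the values of single genes under alternatives, 669 kept their direction and their side of the threshold, 20 became called, 7 lost the call and 16 turned their sign, none of them to a called value. With library-size scaling ANAC016 turned to -0.10 in Col-0 and -0.035 in ap1/cal, and the difference and scaled difference of ANAC017 to -0.16 and -0.016. That difference of ANAC017 was -0.058 with upper-quartile scaling and -0.014 to 0.14 with each library left out in turn. The scaled difference of AT2G41730 was -0.063 with a pseudocount of 0.1 and -0.18 to 0.54 with each library left out. That of AT5G09570 was 0.73 with a pseudocount of 10 and 0.16 with the least-squares slope, and -0.59 to 0.078 with each library left out. The causes were not tested.

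The replicate block changed 1 call, the scaled difference of ANAC013 (0.67, adjusted p 0.0303 in limma with Benjamini-Hochberg adjustment). Over all genes, 3006 differences and 2552 scaled differences were called, against 338 and 194 in the test against a fold of 1.5. Library-size scaling moved the split to 3210 higher and 9458 lower in Col-0 and to 3122 and 11154 in ap1/cal, and upper-quartile scaling to 4084 and 7713 and to 4261 and 8989. The main split was 5538 and 5991 in Col-0 and 6155 and 6813 in ap1/cal. With 3 libraries per group, the lowest Mock values (AT5G09570, at most 19 estimated reads) limit how well a response is sized.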
